A study of Mus musculus with 18 samples.

Results

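The genes described here are 10 members of the amino acid stress response that runs through the transcription factor ATF4: *Atf4*, *Ddit3*, *Asns*, *Trib3*, *Chac1*, *Sesn2*, *Psat1*, *Phgdh*, *Shmt2* and *Mthfd2*. They were taken by symbol from the 31053 genes listed in the count table, and all 10 were among the 12290 genes that passed the filter on low counts. Their levels were read by RNA-Seq in BM-derived macrophages, macrophages grown in culture from bone marrow, in 18 libraries of 6 mice. The 3 knockout mice (Slc7a7 LysM-/-) carry a knockout of *Slc7a7* in myeloid cells, where Cre recombinase is expressed from the lysozyme M (*Lyz2*) locus. The *Slc7a7* mRNA was lowered but not absent in their cells, as given below. The 3 wild type mice (Slc7a7 LysM+/+) are their controls. All 6 mice are on the C57Bl/6J background, and bone marrow was taken at 12 weeks of age. The cells of each mouse were split over 3 media for 24 h, namely vehicle alone (control), acetylated LDL at 50 μg/mL (Ac-LDL) and oxidized LDL at 100 μg/mL (Ox-LDL), so that each of the 6 groups holds 3 libraries and each mouse gave 1 library in each medium. Both are chemically altered lipoproteins, which enter macrophages by way of scavenger receptors and load them with lipid. Their doses differ, so a difference between the 2 LDLs is also a difference of dose.

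Cells that run short of amino acids accumulate uncharged tRNAs, which activate the kinase GCN2. GCN2 and its relatives PERK, HRI and PKR phosphorylate the translation initiation factor eIF2α, which slows most protein synthesis while translation of the *Atf4* mRNA goes up. ATF4 then pairs with C/EBP proteins and other bZIP factors, and turns on genes for amino acid synthesis, amino acid uptake, tRNA charging and stress control. Since ATF4 is set largely by translation and protein stability, the mRNA of *Atf4* is a less direct readout of the pathway than the mRNAs of its targets. *Slc7a7* encodes the light chain y+LAT1 of a transporter that exports cationic amino acids such as arginine in exchange for neutral ones such as glutamine and leucine. The design thus asks whether knockout of *Slc7a7*, LDL loading, or both, go with a shift in genes of the amino acid response.

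The members have distinct places in this response. *Atf4* (chromosome 15, 80255184-80257541 in GRCm38, plus strand) encodes the factor itself. *Ddit3* (chromosome 10, 127290774-127296288, plus strand) encodes CHOP, a bZIP factor downstream of ATF4. *Trib3* (chromosome 2, 152337422-152344032, minus strand) encodes a pseudokinase that restrains ATF4. *Chac1* (chromosome 2, 119351229-119354381, plus strand) encodes a glutathione-degrading enzyme, and *Sesn2* (chromosome 4, 132492032-132510501, minus strand) a leucine-binding inhibitor of mTORC1. *Asns* (chromosome 6, 7675169-7693254, minus strand) encodes asparagine synthetase. *Phgdh* (chromosome 3, 98313170-98339990, minus strand) and *Psat1* (chromosome 19, 15904678-15947337, minus strand) encode enzymes of serine synthesis. *Shmt2* (chromosome 10, 127517123-127522444, minus strand) and *Mthfd2* (chromosome 6, 83305691-83325908, minus strand) encode the mitochondrial enzymes that carry the serine carbon into the folate cycle. Counts are summed over the exons of each gene's transcripts, untranslated regions included.

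ATF4 and its partners bind a composite element joining a C/EBP and an ATF site, whose core was searched as the letters TGATGNAA on both strands. The search covered the 300 bases from 250 before to 50 after each gene's start in the RefSeq promoter table (GRCm38.p6). All 10 members had a promoter in the table, 11 promoters in all, and 3 members held the letters. Of all 32851 promoters of this length, 1304 (3.97%) held them. The 3 windows are shown to place the searched letters relative to each gene's start, with 8 bases on either side and the match in capitals:
*Asns*, minus strand, chr6:7693217-7693240, in the gene's own direction: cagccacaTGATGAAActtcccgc
*Trib3*, plus strand, chr2:152344031-152344054, against the gene's direction: cgcccggcTGATGTAAacctgagc
*Chac1*, minus strand, chr2:119351041-119351064, against the gene's direction: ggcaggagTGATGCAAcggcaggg
By the RefSeq starts of the promoter table, the match lies 23 to 16 bases before the start of *Asns* and 193 to 186 bases before that of *Chac1*. In *Trib3* it lies 15 to 22 bases after that start. The gene coordinates given above have other starts. By those, the *Asns* match lies inside the gene and the *Trib3* match before its start, while the *Chac1* match stays before the start. A match is a description of the letters, not a measured binding site. No match in the other members says only that the letters are not in this window.

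Total counts per library were 1043490 to 1768820. Of the defining macrophage markers (*Adgre1*, *Csf1r*, *Cd68* and 5 others), 8 of 8 were detected in every group, with a summed level of 3476 to 7252 CPM (counts relative to the TMM-scaled library size) per library. Summed neutrophil markers were at 25.5 to 252 CPM, with *Retnlg* at 0 in all 18 libraries. Dendritic cell markers summed to at most 5.20 CPM, lymphoid markers to at most 1.24 CPM, stromal markers to at most 10.8 CPM and erythroid markers to at most 2.19 CPM. *Slc7a7* itself was lower in knockout cells by 56.0% in control medium (6.58 against 14.9 CPM), 87.1% with Ac-LDL (3.27 against 25.3 CPM) and 64.6% with Ox-LDL (9.91 against 27.98 CPM). The edgeR adjusted p was 1 for the control libraries, 0.000472 for Ac-LDL and 0.276 for Ox-LDL. The groups did not overlap in any medium, and the two-sided exact permutation test of each medium gave p = 0.10, the smallest that 3 against 3 libraries allow.

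The 3 libraries of wild type mouse 1 stood apart from the other wild type libraries. They were the smallest of the wild type libraries, with 1043490 to 1131740 counts. Their macrophage markers summed to 3476 to 4365 CPM, against 5180 to 7148 CPM in wild type mice 2 and 3. Their neutrophil markers summed to 126 to 252 CPM, against 72.9 to 184 CPM. These 3 libraries share 1 animal and its culture, so they are not independent of each other. Values without this mouse are given beside the differences that it moved most.

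Levels are given first, per library and in the order mouse 1, 2 and 3 of each genotype, as CPM. *Atf4* was at 121, 102 and 88.2 CPM in wild type control cells, at 109, 101 and 96.6 CPM with Ac-LDL and at 138, 86.4 and 96.5 CPM with Ox-LDL. In knockout cells it was at 104, 108 and 85.1 CPM in control, at 79.6, 114 and 103 CPM with Ac-LDL and at 117, 97.8 and 86.7 CPM with Ox-LDL. All groups overlapped, and the 6 group means lay between 98.9 and 107 CPM. *Atf4* was the most abundant of the 10 transcripts and the steadiest, with a coefficient of variation of 16.7% within groups.

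*Ddit3* was at 6.50, 9.07 and 16.8 CPM in wild type control cells, at 12.3, 18.5 and 6.12 CPM with Ac-LDL and at 23.3, 9.88 and 14.3 CPM with Ox-LDL. The knockout libraries had 12.7, 9.29 and 9.03 CPM in control, 11.8, 7.77 and 14.5 CPM with Ac-LDL and 17.7, 8.21 and 15.03 CPM with Ox-LDL. In both genotypes the highest single value was an Ox-LDL library of mouse 1, while an Ox-LDL library of mouse 2 lay near the control level, so that the groups overlapped.

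The feedback and redox members had low counts. *Trib3* had a mean of 3.95 CPM and 2 to 9 counts per library, and its group means ran from 3.29 ± 2.11 CPM (SD, n = 3) in wild type control cells to 4.87 ± 2.09 CPM with Ox-LDL in the same genotype. *Chac1* had a mean of 1.44 CPM and 0 to 6 counts per library. It had no count in 3 of 18 libraries, which are mouse 3 of the wild type Ac-LDL group, mouse 2 of the wild type Ox-LDL group and mouse 1 of the knockout Ac-LDL group. A level of 3 counts corresponds to 1.67 to 2.85 CPM in these libraries, so most *Chac1* values are near or under the limit that a count of 0 allows. Counting error alone gives an expected coefficient of variation of 42.6% for *Trib3* and 69.7% for *Chac1*, against 46.1% and 82.3% observed within groups.

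*Sesn2* was at 12.1, 8.38 and 19.7 CPM in wild type control cells, at 14.2, 8.13 and 14.3 CPM with Ac-LDL and at 15.2, 11.7 and 14.998 CPM with Ox-LDL. In knockout cells the values were 12.1, 9.29 and 12.9 CPM in control, 8.67, 8.33 and 9.28 CPM with Ac-LDL and 5.89, 9.58 and 17.9 CPM with Ox-LDL. The 3 knockout Ac-LDL libraries lay under the 3 knockout control libraries, with 9.28 against 9.29 CPM at the nearest pair. This was the 1 case among the 10 members and the 9 comparisons of 2 groups in which the libraries did not overlap. In that comparison 16.7% of the 12290 genes did not overlap. In the other 8 comparisons, where no member stood clear, the shares were 11% and 11.8% for Ac-LDL and Ox-LDL against control in wild type cells and 21.6% for Ox-LDL in knockout cells. They were 9.2% and 13.4% between the LDLs, and 9.28%, 10.4% and 9.3% between the genotypes in the 3 media.

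*Asns* was at 34.4, 26.5 and 14.6 CPM in wild type control cells, at 24.7, 17.7 and 12.9 CPM with Ac-LDL and at 30.5, 14.2 and 14.3 CPM with Ox-LDL. Knockout cells had 21.1, 34.0 and 21.9 CPM in control, 11.8, 32.2 and 16.8 CPM with Ac-LDL and 22.7, 27.4 and 19.1 CPM with Ox-LDL. Within each of the 6 mice the Ac-LDL value was under the control value, but the mice differed among themselves by more than the media did, so that all groups overlapped.

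Of the serine synthesis enzymes, *Phgdh* was at 13.9, 3.49 and 6.56 CPM in wild type control cells, at 18.03, 7.39 and 4.08 CPM with Ac-LDL and at 19.7, 8.64 and 10.4 CPM with Ox-LDL. It was at 10.9, 14.9 and 12.9 CPM in knockout control cells, at 5.52, 11.1 and 7.54 CPM with Ac-LDL and at 13.5, 10.9 and 11.6 CPM with Ox-LDL. Wild type mouse 1 was above the other wild type mice in every medium.

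Much of the *Phgdh* exon sequence, 55.9% of its 31-base words, is also present in 23 other annotated genes. Of these, the pseudogene *Gm7901* shares the most words. Reads of *Phgdh* could have been split between these genes, so the level of *Phgdh* is uncertain. The shared part was 4.56% for *Ddit3*, 3.55% for *Shmt2* and 2.18% for *Psat1*, and none for the other 6 members. *Ddit3*, *Psat1* and *Shmt2* also overlap genes on the opposite strand (*Mars* and *Gm4189*, *Gm3329*, and *Ndufa4l2*), and *Ddit3* a second gene listed under its own symbol, *Sesn2* (*Gm12981*) and *Mthfd2* (*Gm43890*) genes on their own strand. The library kit keeps strand, but the strand setting of the counting is not given in the sources used here.

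*Psat1* was at 25.1, 20.2 and 9.48 CPM in wild type control cells, at 30.4, 27.3 and 14.96 CPM with Ac-LDL and at 25.1, 12.96 and 13.04 CPM with Ox-LDL. Its knockout levels were 18.1, 24.8 and 16.1 CPM in control, 18.1, 27.2 and 22.0 CPM with Ac-LDL and 20.2, 23.3 and 19.1 CPM with Ox-LDL. The wild type libraries spread more widely than the knockout libraries in each medium, and the groups overlapped.

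Of the mitochondrial folate enzymes, *Shmt2* was at 35.3, 39.1 and 28.4 CPM in wild type control cells, at 42.7, 31.03 and 23.8 CPM with Ac-LDL and at 41.2, 27.2 and 21.5 CPM with Ox-LDL. Knockout libraries held 27.7, 37.8 and 44.5 CPM in control, 27.6, 46.1 and 23.2 CPM with Ac-LDL and 26.9, 28.1 and 26.6 CPM with Ox-LDL. The 3 knockout Ox-LDL libraries were close to each other, near the lowest of the knockout control values.

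*Mthfd2* was at 48.3, 27.2 and 21.1 CPM in wild type control cells, at 38.0, 21.4 and 21.8 CPM with Ac-LDL and at 39.4, 19.8 and 23.5 CPM with Ox-LDL. In knockout cells it was at 25.3, 30.95 and 28.4 CPM in control, at 19.7, 36.7 and 33.6 CPM with Ac-LDL and at 28.6, 43.1 and 26.0 CPM with Ox-LDL. The high value in each wild type group was that of mouse 1.

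**Figure D1:**
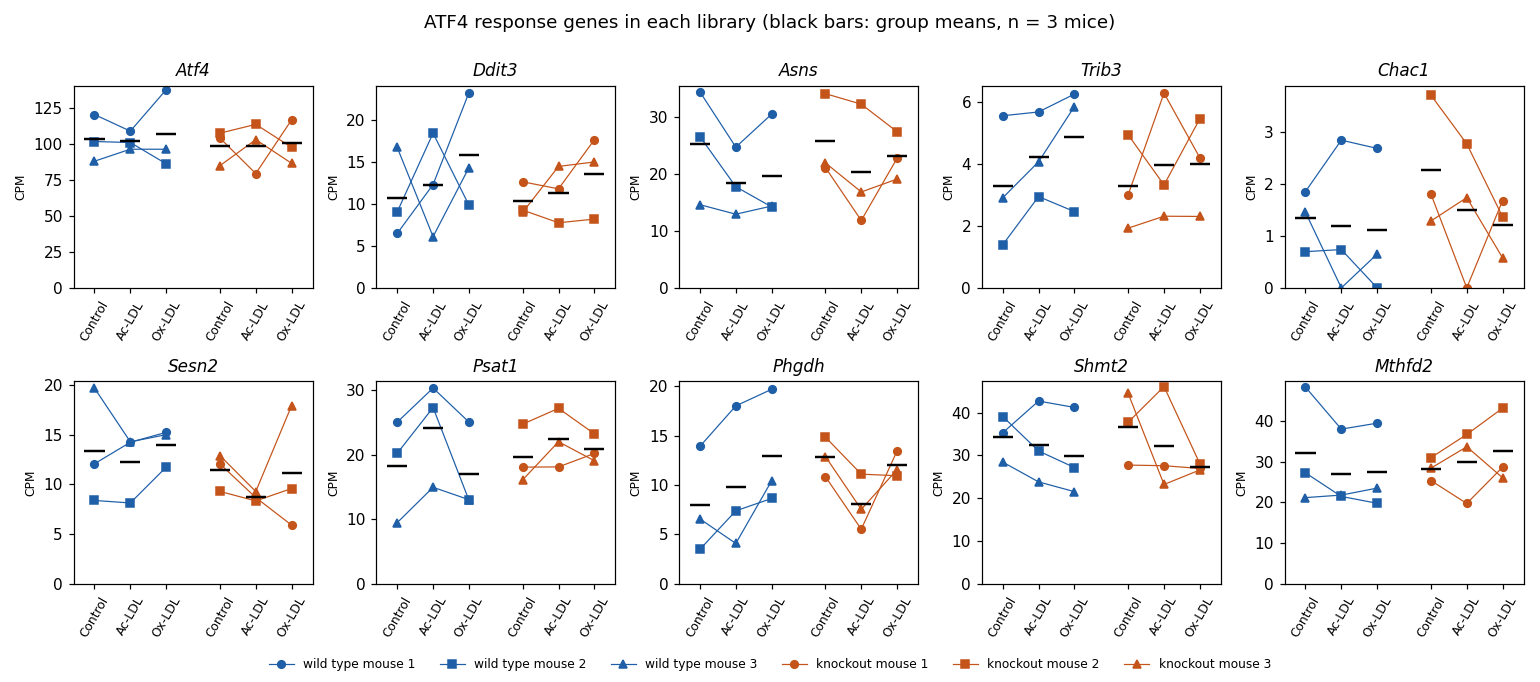
Level of each of the 10 genes in CPM on the vertical axis for the 6 groups of genotype and medium, 1 point per library, with lines joining the 3 media of a mouse and bars at the group means. In the 9 comparisons of 2 groups the points overlap in every panel, but for *Sesn2* between knockout control and knockout Ac-LDL, and wild type mouse 1 gives the upper wild type point in 25 of 30 cases of gene and medium.

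The first comparison asks whether LDL loading went with a change of the pathway within a genotype. None of the 10 genes passed an adjusted p of 0.05 in edgeR's quasi-likelihood test (Benjamini-Hochberg over all genes tested) in any of the 4 comparisons of an LDL with control. Without mouse terms, none had an unadjusted p under 0.05 with edgeR or with DESeq2. Among all 12290 genes, the share called was 0.472% with Ac-LDL and 1.34% with Ox-LDL in wild type cells, and 0.521% and 2.32% in knockout cells. At an unadjusted p under 0.05 the shares were 7.33%, 10%, 7.53% and 12.3%. Against these shares, counts of 0 of 10 do not set the members apart from other genes. With the mouse as a block, the share of all genes called was 2.16%, 4.39%, 2.5% and 7.18% in the same order, and again none of the 10 was called. In that fit, 1 member had an unadjusted p under 0.05 with Ox-LDL in each genotype, against 14.3% and 17.8% of all genes. These were *Phgdh* in wild type cells (edgeR unadjusted p = 0.0475) and *Shmt2* in knockout cells (0.0491). In bulk libraries such as these, fewer cells of a type and less RNA per cell cannot be told apart.

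The widths of the intervals say how large a change could have gone unseen in the fit without mouse terms. With the mouse as a block they can be narrower. The SE of *Phgdh* with Ox-LDL in wild type cells was 0.48 without the block and 0.37 with it. For *Atf4*, the log2 fold changes of the 4 LDL comparisons lay between -0.02 and 0.04, and their 95% intervals together ran from 0.767-fold to 1.32-fold. For *Mthfd2* the intervals ran from 0.529-fold to 1.78-fold, for *Shmt2* from 0.505-fold to 1.39-fold and for *Asns* from 0.423-fold to 1.47-fold. Those of *Psat1* (0.561-fold to 2.13-fold) and *Sesn2* (0.452-fold to 1.73-fold) were similar. For *Ddit3* (0.596-fold to 2.53-fold) and *Phgdh* (0.343-fold to 3.23-fold) a change of 2-fold was within the intervals, as it was for *Trib3* (0.499-fold to 3.57-fold). A 2-fold fall was also within the intervals of *Asns* and *Sesn2*, and a 2-fold rise within those of *Psat1*. For *Chac1* the range of 0.125-fold to 4.72-fold leaves its response unmeasured at this depth.

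The differences with the smallest p-values were those of the serine and folate enzymes. *Shmt2* was lower with Ox-LDL in knockout cells by a log2 fold change of -0.43 (SE 0.27, edgeR adjusted p = 0.582), the smallest adjusted p of a member in the 12 comparisons. *Phgdh* differed by 0.71 with Ox-LDL in wild type cells (SE 0.48, edgeR adjusted p = 0.714) and by -0.64 with Ac-LDL in knockout cells (SE 0.44, adjusted p = 0.809). The wild type value of *Phgdh* was 1.32 without the control library of mouse 1 (edgeR adjusted p = 0.327). *Asns* differed by -0.46 with Ac-LDL in wild type cells (SE 0.38, edgeR adjusted p = 0.876) and by -0.30 in knockout cells (SE 0.35, adjusted p = 0.909), the latter being -0.80 without the Ac-LDL library of knockout mouse 2 (adjusted p = 0.757). *Ddit3* differed with Ox-LDL by 0.48 in wild type cells, which became -0.09 without wild type mouse 1, and by 0.38 in knockout cells. None of these passed the test. The median log2 fold change over the 10 members was between -0.08 and 0.02 in the 4 comparisons, against -0.0046 to 0.0079 over all genes.

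Ox-LDL was also compared directly with Ac-LDL. None of the members was called in wild type or in knockout cells, where 0.00814% and 0.0651% of all genes were. Without mouse terms, none had an unadjusted p under 0.05 with edgeR or DESeq2, against 5.14% and 5.55% of all genes with edgeR. With the mouse as a block, *Psat1* in wild type cells had an edgeR unadjusted p of 0.0387, where 8.87% of all genes were under 0.05. *Psat1* was lower with Ox-LDL than with Ac-LDL in wild type cells by a log2 fold change of -0.53 (SE 0.33, edgeR adjusted p = 0.965), or -0.87 without the Ox-LDL library of mouse 1 (adjusted p = 0.83).

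**Figure D2:**
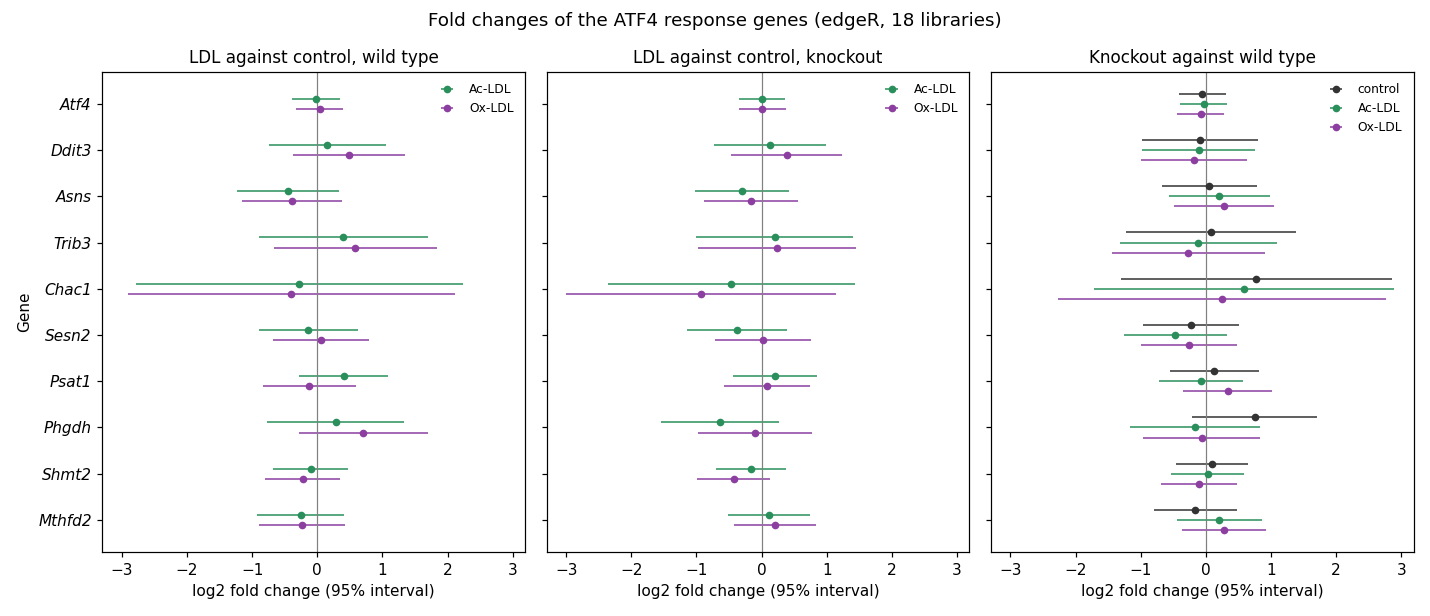
Log2 fold change of each of the 10 genes on the horizontal axis, as points with 95% intervals from the edgeR fit. The panels show each LDL against control in wild type cells, the same in knockout cells, and knockout against wild type in each medium. Every interval includes 0, those of *Atf4* are the narrowest and those of *Chac1* the widest.

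Since each mouse gave all 3 media, the LDLs were further compared over both genotypes together, with a term for each of the 6 mice. This comparison was added after the data had been seen, and it shares its libraries with those above. With Ac-LDL, none of the 10 genes was called, while 5.85% of all genes were, and 1 had an unadjusted p under 0.05, against 16.8% of all genes. This was *Asns*, with a log2 fold change of -0.39 (95% interval -0.73 to -0.04, edgeR adjusted p = 0.211), lower in 6 of 6 mice. *Psat1* was higher in 6 of 6 mice, by 0.31 (interval -0.03 to 0.65, edgeR adjusted p = 0.359). *Atf4* had a difference of 0.00 (interval -0.19 to 0.20), with 3 mice higher and 3 lower.

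With Ox-LDL, none of the 10 was called against 11.3% of all genes, and 1 had an unadjusted p under 0.05 against 22.2%. *Shmt2* was lower in 5 of 6 mice, by -0.34 (interval -0.65 to -0.03, edgeR adjusted p = 0.179). *Trib3* was higher in 6 of 6 mice, by 0.44 (interval -0.40 to 1.28, edgeR adjusted p = 0.594). Its counts in control and Ox-LDL were equal in knockout mouse 1 (5 and 5) and knockout mouse 2 (8 and 8), so the sign there rests on the library scaling. *Ddit3* was higher in 4 of 6 mice, by 0.41 (interval -0.13 to 0.96, edgeR adjusted p = 0.392), and by 0.15 without wild type mouse 1. Between the LDLs, none was called against 3.23% of all genes, and *Phgdh* alone had an unadjusted p under 0.05, against 13.2% of all genes, with a log2 fold change of 0.51 (SE 0.25, edgeR adjusted p = 0.359), higher with Ox-LDL in 5 of 6 mice. DESeq2 gave no member an unadjusted p under 0.05 in these 3 comparisons. Without wild type mouse 1, *Asns* kept its sign with Ac-LDL (-0.37, edgeR unadjusted p = 0.0651), and *Shmt2* differed by -0.44 with Ox-LDL (edgeR adjusted p = 0.0726).

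The next comparison asks whether the knockout of *Slc7a7*, which lowered its mRNA in part, went with a change of the pathway. None of the 10 genes was called in control medium, with Ac-LDL or with Ox-LDL, where 0.00814%, 0.0163% and 0.00814% of all genes were called. None had an unadjusted p under 0.05 with edgeR or DESeq2, against 4%, 4.89% and 4.78% of all genes with edgeR. In control medium *Phgdh* was higher in knockout cells by a log2 fold change of 0.75 (interval -0.21 to 1.71, edgeR adjusted p = 1). Averaged over media, with counts summed per mouse, no member was called against 0.00789% of 12673 genes, and none had an unadjusted p under 0.05 in edgeR against 4.14%. *Atf4* differed by -0.06 (interval -0.33 to 0.22), or 0.07 without wild type mouse 1, *Asns* by 0.16 (interval -0.44 to 0.76) and *Sesn2* by -0.31 (interval -0.85 to 0.23). Over the alternatives, which include leaving out each mouse, *Asns* ranged from -0.13 to 0.48 and *Sesn2* from -0.53 to -0.12.

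The response to LDL was also compared between the genotypes. None of the members, and none of the 12290 genes (0%), was called for either LDL in edgeR without mouse terms. At an unadjusted p under 0.05 that fit gave 327 genes (2.66%) for Ac-LDL and 338 (2.75%) for Ox-LDL and no member. DESeq2 called 1 gene and 0 genes at an adjusted p under 0.05. With the mouse as a block, edgeR called 5 genes (0.0407%) for Ac-LDL and 0 for Ox-LDL. Without the filter on low counts it called 18 and 15 of 22179 genes. No member was among them. *Phgdh* had the most different response, -0.92 with Ac-LDL (interval -2.31 to 0.47) and -0.81 with Ox-LDL (interval -2.13 to 0.51). Without the control library of wild type mouse 1, these *Phgdh* values were -1.53 (edgeR unadjusted p = 0.0352) and -1.42 (unadjusted p = 0.0402), and neither passed the adjusted threshold. The wild type libraries were numbered before the knockout libraries throughout, so an effect of processing order and one of genotype cannot be told apart.

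The comparisons with wild type cells depend on mouse 1, among others for *Phgdh* and *Mthfd2*. Without its 3 libraries, *Phgdh* in control medium was higher in knockout cells by 1.34 (edgeR unadjusted p = 0.00356, adjusted p = 0.842), where 5.83% of all genes had an unadjusted p under 0.05. Averaged over media, *Phgdh* was then higher by 0.68 (edgeR adjusted p = 0.867) and *Mthfd2* by 0.44 (edgeR adjusted p = 0.875). With Ox-LDL, *Mthfd2* was higher in knockout cells by 0.59 (edgeR unadjusted p = 0.037), where 4.08% of all genes had an unadjusted p under 0.05. No member was called without this mouse in any comparison. The part of this mouse's lower depth and macrophage marker level in these values was not tested.

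For most members, differences between mice were larger than those between media. Taking the mean log2 CPM of each mouse and of each medium, the range over mice exceeded the range over media for 9 of 10 members in wild type and for 9 of 10 in knockout cells. The exceptions were *Ddit3* in wild type cells (0.11 over mice, 0.52 over media) and *Phgdh* in knockout cells (0.33 and 0.63). Wild type mouse 1 had the highest of the 3 wild type values in 25 of 30 cases of gene and medium, and in all media for *Atf4*, *Asns*, *Trib3*, *Chac1*, *Psat1*, *Phgdh* and *Mthfd2*. Knockout mouse 2 was the highest knockout mouse in 19 of 30 cases, and in all media for *Asns*, *Psat1* and *Mthfd2*. The same counts over all genes are not given here, so these counts do not set the members apart from other genes.

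A test of the mouse terms, added after the data had been seen, called 4 of 10 members over both genotypes, against 13% of all genes. These were *Asns* (edgeR adjusted p = 0.00163), *Mthfd2* (0.00194), *Psat1* (0.0162) and *Phgdh* (0.0204), all biosynthetic enzymes. The regulators *Atf4* (edgeR adjusted p = 0.141), *Ddit3* (0.659), *Trib3* (0.278) and *Sesn2* (0.217) were not called, nor were the enzymes *Shmt2* (0.0872) and *Chac1* (0.466). Over both genotypes 6 of 10 had an unadjusted p under 0.05 in edgeR, against 24.4% of all genes. Among wild type mice the same 4 genes were called against 15.4% of all genes, and 6 had an unadjusted p under 0.05 against 27%. Among knockout mice none was called against 1.07%, although *Asns* (edgeR unadjusted p = 0.00184) and *Mthfd2* (0.0233) had an unadjusted p under 0.05, as 8.99% of all genes did. A difference between the genotypes in this respect was not tested. Without wild type mouse 1 the test called *Asns* alone over both genotypes, against 4.49% of all genes, and none of the 10 among wild type mice, against 3.32%. DESeq2's likelihood ratio test called none of the 10, against 6.2% of all genes, and gave 4 of them an unadjusted p under 0.05, against 11.9%. Each mouse is 1 culture, so animal, culture and marrow preparation cannot be told apart.

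**Figure D3:**
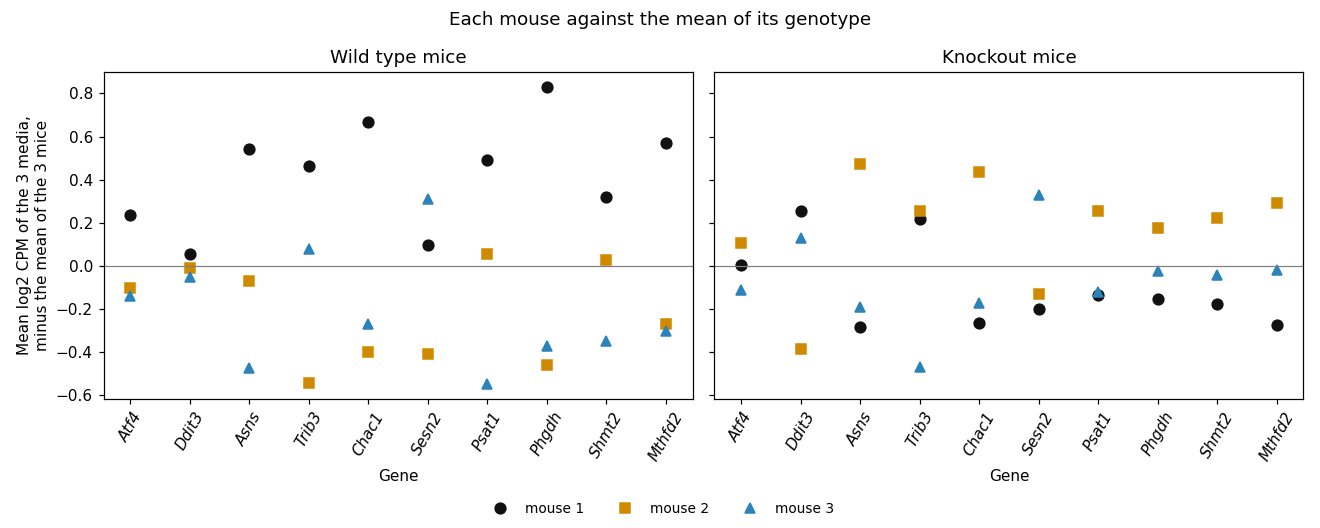
Mean log2 CPM of each mouse over its 3 media minus the mean of its genotype on the vertical axis, for the 10 genes along the horizontal axis, with 1 point per mouse. Wild type mouse 1 lies highest of its genotype for most genes, and the range over wild type mice reaches 1.29 for *Phgdh* and 1.02 for *Asns*.

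Across the 18 libraries, the members varied together only in part. The 45 pairs had Pearson correlations of log2 CPM from -0.46 to 0.83, with a median of 0.36, and 17 pairs were over 0.5. With the group means taken out, the median was 0.42, and the highest value was that of *Asns* and *Psat1* (0.91). *Asns* with *Mthfd2* gave 0.83 over all libraries and 0.87 within groups, while *Asns* with *Sesn2* gave -0.24 and -0.30. The points share libraries, mice and depth, and they are given as a description. Among 8600 other genes with a mean of at least 10 CPM, those most like the mean of the 10 members over the 18 libraries were *Spp1* (r = 0.90), *Cnbp* (0.87), *Ran* (0.86), *Ldha* (0.86) and *Eif4a1* (0.85).

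**Figure D4:**
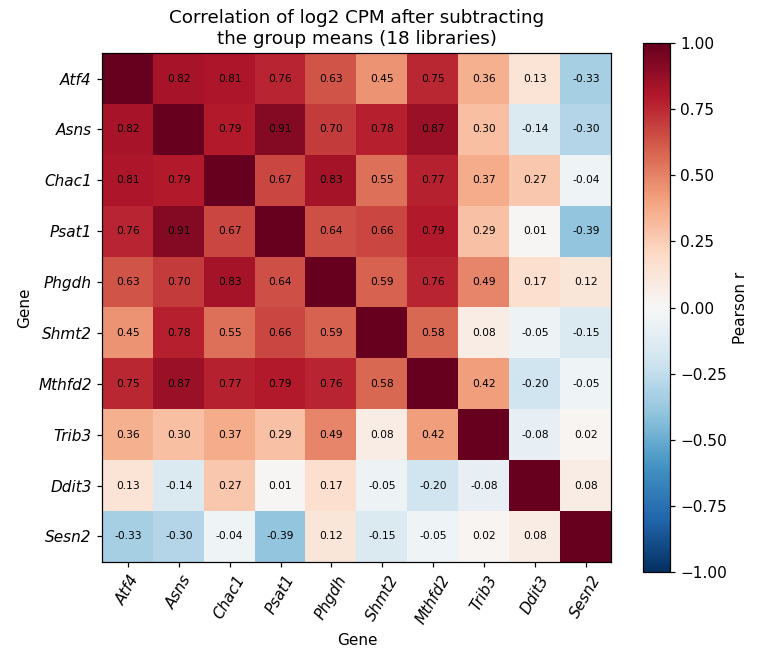
Heat map of the Pearson correlation of log2 CPM for the pairs of the 10 genes over the 18 libraries with the group means taken out, with color for r. The highest value is that of *Asns* and *Psat1* (0.91), other pairs among *Atf4*, *Asns*, *Chac1*, *Psat1*, *Phgdh* and *Mthfd2* reach 0.87, and *Sesn2* has low or negative values with *Asns*.

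Levels per kilobase of exon order the members and their relatives. *Atf4* was at 43.2 CPM per kb, followed by *Shmt2* (10.3), *Mthfd2* (8.49), *Asns* (8.06), *Ddit3* (7.22), *Psat1* (4.798), *Phgdh* (4.27), *Sesn2* (3.40), *Trib3* (1.86) and *Chac1* (0.879). The ranges over libraries of neighbours in this order overlapped, except that the lowest *Atf4* value (33.8 CPM per kb) was above the highest of *Shmt2* (14.8 CPM per kb). *Shmt2* was 12.2 times its cytosolic relative *Shmt1* per kb, *Mthfd2* 8.04 times *Mthfd2l*, and *Atf4* 10.3 times *Atf5*, each higher in 18 of 18 libraries. *Mthfd2* was 1.28 times *Mthfd1*, higher in 15 of 18. *Sesn2* lay between its relatives, at 0.132 times *Sesn1* and 4.34 times *Sesn3*, and so did *Trib3*, at 0.258 times *Trib1* and 14.7 times *Trib2*, in this order in all 18 libraries. *Chac1* was 0.221 times *Chac2*, higher in 1 of 18 libraries.

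**Figure D5:**
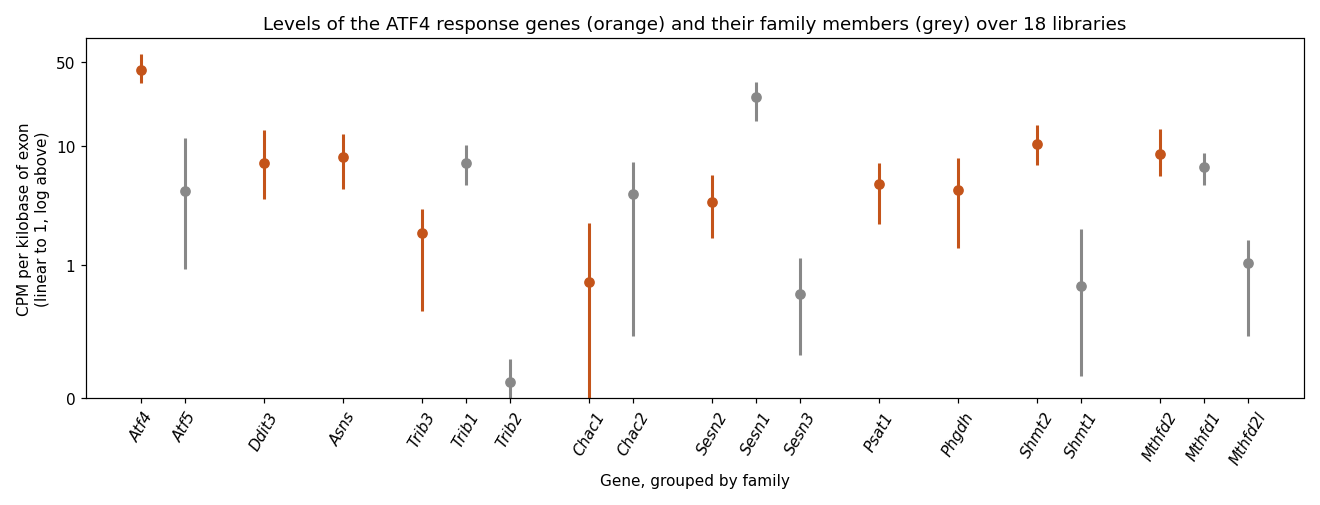
Level per kilobase of exon (CPM per kb, on a scale linear to 1 and logarithmic above) of the 10 genes and their paralogs, with a point at the mean of the 18 libraries and a bar from the lowest to the highest library. *Atf4* lies at 43.2 CPM per kb, above its paralog *Atf5* at 4.19, while *Sesn2* at 3.40 lies below *Sesn1* at 25.8.

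Other genes of the pathway were counted in lists by role. Within a genotype, 1 gene of these lists was called, *Aldh1l1*, a cytosolic folate enzyme, 1 of 14 genes tested of the serine and one-carbon list. It fell with Ox-LDL in knockout cells, from 19.1 ± 2.68 to 8.07 ± 3.30 CPM (SD, n = 3). Its log2 fold change was -1.27 (SE 0.32, edgeR adjusted p = 0.0301, and 0.00609 with the mouse as a block). None was called among 8 transcription factors of the integrated stress response, 14 eIF2α kinases and phosphatases with their partners, 8 amino acid transporters and 9 amino acid and redox targets. Nor was any called among 13 genes of tRNA charging and export, 8 paralogs and 13 targets of the ATF6 and IRE1 arms of ER stress. With the mouse as a block, *Slc7a11*, the cystine importer, fell with Ac-LDL in knockout cells by -2.08 (edgeR adjusted p = 0.00105), and *Cebpb* fell with Ox-LDL by -1.24 in wild type cells (adjusted p = 3.84e-05) and by -0.81 in knockout cells (adjusted p = 0.00311). In the same fit *Xpot* rose with Ac-LDL in wild type cells by 0.53 (edgeR adjusted p = 0.0169). *Atf3* rose with Ox-LDL by 0.45 in wild type cells (edgeR adjusted p = 0.0206) and by 0.43 in knockout cells (adjusted p = 0.00724). *Herpud1* fell with Ox-LDL in wild type cells by -0.77 (edgeR adjusted p = 0.0212), *Gars* fell with Ox-LDL in knockout cells by -0.41 (adjusted p = 0.0288), and *Cebpd* fell in knockout cells with Ac-LDL by -0.80 and with Ox-LDL by -0.54. *Slc7a11* was higher with Ox-LDL than with Ac-LDL by 1.79 in wild type and 1.59 in knockout cells (edgeR adjusted p = 0.0251 and 0.0442).

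Over both genotypes with mouse terms, more of these genes passed, as did more genes in all (5.85% with Ac-LDL, 11.3% with Ox-LDL and 3.23% between the LDLs). A list with 1 call of 13 or 14 genes is near these shares. *Aldh1l1* fell with Ac-LDL by -1.08 (edgeR adjusted p = 0.00118) and with Ox-LDL by -1.14 (adjusted p = 0.000291), in 6 of 6 mice each, and was the 1 gene of 14 called in its list. Of the 8 transcription factors, *Atf3* rose with Ac-LDL (0.31, edgeR adjusted p = 0.0122) and Ox-LDL (0.44, adjusted p = 0.00012), in 6 of 6 mice each. *Cebpb* and *Cebpd*, which encode C/EBP partners of ATF4, fell with both, *Cebpd* by -0.62 with Ac-LDL (edgeR adjusted p = 4.66e-05) and -0.40 with Ox-LDL (adjusted p = 0.00449), *Cebpb* by -0.73 and -1.02. *Jdp2* was called lower with Ac-LDL (-0.65, edgeR adjusted p = 0.0452), a call that 3 of 12 alternatives gave. Without mouse terms *Cebpb* was not called with either LDL (edgeR adjusted p = 0.331 and 0.0687).

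Of the 8 transporters, *Slc7a11* fell with Ac-LDL by -1.69 (edgeR adjusted p = 0.000174), lower in 5 of 6 mice, and was higher with Ox-LDL than with Ac-LDL by 1.69 (adjusted p = 0.00034), in 6 of 6 mice. Its group means were 13.3, 5.52 and 19.4 CPM in wild type cells and 21.5, 4.62 and 15.6 CPM in knockout cells, in the order control, Ac-LDL and Ox-LDL. *Slc7a5*, the leucine importer, fell with Ox-LDL by -1.05 (edgeR adjusted p = 0.0118), in 6 of 6 mice, and was not called without wild type mouse 1 (adjusted p = 0.0565). Of the 9 redox and other targets, *Herpud1*, an ER protein of protein degradation, fell with both LDLs (-0.57 and -0.71, edgeR adjusted p = 0.0121 and 0.000672), and *Gdf15*, a stress cytokine, rose with Ox-LDL (1.14, adjusted p = 0.0445), not called without wild type mouse 1 (adjusted p = 0.153). Of the 13 genes of tRNA charging and export, *Xpot*, which encodes a tRNA exporter, rose with Ac-LDL (0.29, edgeR adjusted p = 0.0423). *Gars* fell with Ox-LDL (-0.28, edgeR adjusted p = 0.0247). Of the 8 paralogs, *Sesn1* fell (-0.30, edgeR adjusted p = 0.0174) and *Sesn3* rose (0.76, adjusted p = 0.0264) with Ox-LDL. *Sesn1* was also lower with Ox-LDL than with Ac-LDL (-0.405, edgeR adjusted p = 0.00346), in 6 of 6 mice, a call that 11 of 12 alternatives gave. Of the 13 ER stress genes, *Calr* fell with Ox-LDL (-0.25, edgeR adjusted p = 0.0113), and none of the 14 eIF2α kinases, phosphatases and partners passed. Several of these calls rest on the fit: in edgeR without mouse terms *Slc7a11* had an adjusted p of 0.0698 between the LDLs, *Slc7a5* 0.0559 and *Gdf15* 0.115 with Ox-LDL, and *Atf3* 0.12 and *Herpud1* 0.1 with Ac-LDL. Nor were *Jdp2*, *Xpot*, *Gars*, *Sesn3*, *Calr* or *Sesn1* called there, or *Cebpd* with Ox-LDL. *Aldh1l1* with both LDLs, *Slc7a11* and *Cebpd* with Ac-LDL, and *Atf3* and *Herpud1* with Ox-LDL were called under all 12 alternatives.

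Markers moved with the media as well. Of the 8 macrophage markers, *Mertk* and *Mrc1* rose and *Adgre1*, *Cd14* and *Csf1r* fell with each LDL in the same fit over both genotypes. Of 6 neutrophil markers, *S100a9* rose with Ox-LDL, and *Ltf*, *S100a8* and *S100a9* were higher with Ox-LDL than with Ac-LDL. None of these marker calls with Ac-LDL or between the LDLs was made in edgeR without mouse terms. With Ox-LDL, that fit called *Adgre1*, *Cd14* and *Mertk*, but not *Csf1r*, *Mrc1* or *S100a9*. None of the dendritic cell (1 tested) or stromal (2 tested) markers passed, and lymphoid and erythroid markers were too low to test. Neutrophil markers also tended to be lower in knockout cells. Averaged over media, 5 of 6 were lower at an unadjusted p under 0.05 in edgeR, where 4.14% of all genes had such a p in either direction. None of them passed the adjusted threshold. They also varied between mice of 1 genotype: the test of mouse terms called *Mpo* and *S100a9* among wild type mice, and *S100a8* and *S100a9* among knockout mice. The median log2 fold change of the 6 markers averaged over media was -1.03, against -0.00059 over all genes. With Ac-LDL the median was -1.57, summed levels were 25.5 to 64.6 CPM in knockout against 78.9 to 216 CPM in wild type libraries, and *Ngp* was called lower by DESeq2 (-2.17, adjusted p = 0.00286) and with the replicate block in edgeR (-2.15, adjusted p = 0.0457). The part of these markers in the differences of the pathway genes was not tested.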

How the data were processed

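RNA was taken from BM-derived macrophages of 6 mice in 3 media, and total RNA libraries were made with a stranded low-input kit and sequenced single-end. According to the methods, the authors used an nf-core workflow in which Trim Galore removed adapters, STAR mapped the reads on mm10 and salmon gave estimated counts per gene. The versions and the strand setting are not given in the sources used here. The deposited table holds these estimated counts, which were rounded to whole numbers. No column belonged to another sample (0 columns).

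Genes were kept by filterByExpr (count of at least 2, total of at least 10) and scaled by TMM. edgeR 4.0.16 (R 4.3.3) fitted a quasi-likelihood model over the 6 groups (18 libraries, 12 residual degrees of freedom), and p-values were adjusted by Benjamini-Hochberg across the genes tested (threshold 0.05). For the genotype averaged over media, counts were summed per mouse. Log2 CPM used a prior count of 2. DESeq2 1.42.0, other scalings and filters, fits on only the libraries compared, a replicate block and leaving out libraries or mice were alternatives. The tests of mouse terms, the comparisons over both genotypes and the removal of all libraries of wild type mouse 1 were added after seeing the data. Tests were checked on simulated data, with changes placed only in genes of higher counts. That check does not cover members with low counts such as *Trib3* and *Chac1*. Figures used matplotlib 3.10.9.

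The labels give a mouse number, which marks the same animal across media within a genotype and different animals between genotypes. Deviations of libraries of the same mouse correlated at 0.093 to 0.48 (17 of 18 pairs over 0.1), those of different mice at a median of -0.15. No replicate pair agreed within counting noise (chi-square per degree of freedom 2.08 to 13.9). Floors of 3 counts cover counting error only.

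The members and lists were chosen with earlier results of these data known. All 10 members are given in every library or by their range. Of each other list, the counts past the threshold are given, up to 3 members past it with the smallest p-values are named, and further genes were named after their values were seen. The 5 most similar genes were those with the highest Pearson r with the mean standardised log2 CPM of the members.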

Additional observations from a re-analysis of the deposited data

How the results depend on the processing

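Of 1733 results of single members under an alternative, none crossed the threshold. In 27 of them a difference that was not called changed sign and moved by more than its standard error, each time on leaving out 1 library or mouse, and in 189 it changed sign by less. None of the 10 members was called in any comparison of media or genotypes under any alternative run. With the default filter *Trib3* and *Chac1* were too low to test, except that *Trib3* was tested in the comparison averaged over media. With the replicate block, no member call changed, while *Phgdh* (wild type Ox-LDL, 0.74, edgeR adjusted p = 0.342), *Shmt2* (knockout Ox-LDL, -0.43, adjusted p = 0.278) and *Psat1* (wild type Ox-LDL against Ac-LDL, -0.53, adjusted p = 0.524) came under an unadjusted p of 0.05. So did, on leaving out 1 library, *Phgdh* in 5 comparisons (0.0146 to 0.0402), *Psat1* in wild type Ox-LDL against Ac-LDL (-0.81 and -0.87) and *Asns* in knockout Ac-LDL (-0.80), all in edgeR and none at an adjusted p under 0.05.

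The count of all genes called moved by over 1.5 times with the block, from 58, 165, 64 and 285 in the 4 comparisons of an LDL with control to 265, 539, 307 and 882, and from 1 and 8 between the LDLs to 90 and 169. Leaving out 1 library, or the 3 of wild type mouse 1, gave 40 to 118, 91 to 247, 31 to 50 and 149 to 191. Without a filter they were 176, 337, 188 and 491, and 73 and 91. On only the libraries compared they were 32, 62, 198 and 751, and 1 and 61. Over both genotypes, leaving out the mouse terms moved 719, 1393 and 397 genes to 246, 662 and 48, and DESeq2 gave 361, 784 and 217.

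The count of members that differed between mice, 4 over both genotypes, was 1 without wild type replicate 1 and 0 with DESeq2. Leaving out 1 mouse at a time, it ranged from 1 to 5 over both genotypes, from 0 to 5 among wild type mice (2 without wild type replicate 3) and stayed at 0 among knockout mice. The cause was not tested.

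Depth limits *Chac1* and *Trib3* most, since 3 counts are 1.67 to 2.85 CPM.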
